A study of Mus musculus with 4 samples.

Results

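The genes described here encode the NF-κB transcription factors and the proteins that hold them inactive or release them: the subunits Nfkb1, Nfkb2, Rel, Rela and Relb, the inhibitor Nfkbia, the kinase Ikbkb, and Bcl10 and Malt1 of the antigen-receptor signalling complex. They were chosen by name, and every probe set of the array whose only annotated symbol is 1 of these 9 genes was taken. This gave 8 probe sets, 1 each for 8 of the 9 genes, among 34760 probe sets in all and 21640 with a single symbol. Nfkb1 was not analysed here. The study concerned the homeobox gene NKX2-3 in B lymphocytes and B-cell lymphoma. The samples analysed here are 4 replicates of B220+ c-Kit+ pro-B cells isolated from the bone marrow of wild-type mice of the C57BL/6 background, for which no treatment is named, each on an Affymetrix Mouse Gene 1.0 ST array of its own. No source used here gives the age of the mice or says whether cells of several mice were pooled. All samples belong to 1 group, so the results are levels and their spread between arrays, and no comparison between conditions was possible.

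NF-κB factors are dimers of Rel-family proteins that are kept in the cytoplasm by inhibitors of the IκB family. In the canonical pathway a kinase complex that contains the product of Ikbkb phosphorylates the IκB protein, which is then degraded, and the dimer enters the nucleus. Antigen receptors of lymphocytes reach this kinase through a complex that contains BCL10 and MALT1, and the genes for several IκB proteins and subunits are themselves NF-κB targets. In B cells the pathway serves survival and maturation, and it is activated in many B-cell lymphomas.

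Because several genes of the pathway are known targets of their own products, the promoter windows of the members were searched for the κB consensus, the general motif bound by NF-κB dimers, on both strands. The RefSeq table of build GRCm38.p6 held windows for 5 of the 8 members, from 250 bases before to 50 bases after each annotated gene start, with 3 windows for Nfkb2. At least 1 match was found for 4 of these 5 genes, against 1239 of 10115 genes above background with a window (12.2%) and 8.46% of all windows in the table. Rela had none. For each of the 4 genes 1 window with a match is shown, 5′ to 3′ in the direction of the gene. For Nfkb2 it is window 1. The bases covered by a match are in capitals, and matches that overlap on the same or opposite strands form 1 stretch.
Nfkbia (chr12:55492598-55492897, minus strand): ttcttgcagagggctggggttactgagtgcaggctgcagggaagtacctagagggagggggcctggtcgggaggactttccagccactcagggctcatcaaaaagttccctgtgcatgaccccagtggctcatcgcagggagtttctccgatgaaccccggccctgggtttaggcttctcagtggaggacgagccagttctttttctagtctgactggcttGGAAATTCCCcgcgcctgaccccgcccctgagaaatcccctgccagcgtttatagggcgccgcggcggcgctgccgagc
Rel (chr11:23770920-23771219, minus strand): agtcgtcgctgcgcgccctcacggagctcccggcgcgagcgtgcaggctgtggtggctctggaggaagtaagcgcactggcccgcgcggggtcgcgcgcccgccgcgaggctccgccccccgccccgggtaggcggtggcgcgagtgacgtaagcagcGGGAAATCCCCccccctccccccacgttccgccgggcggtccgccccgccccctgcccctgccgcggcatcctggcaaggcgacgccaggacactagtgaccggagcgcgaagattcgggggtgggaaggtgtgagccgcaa
Nfkb2, window 1 (chr19:46304487-46304786, plus strand): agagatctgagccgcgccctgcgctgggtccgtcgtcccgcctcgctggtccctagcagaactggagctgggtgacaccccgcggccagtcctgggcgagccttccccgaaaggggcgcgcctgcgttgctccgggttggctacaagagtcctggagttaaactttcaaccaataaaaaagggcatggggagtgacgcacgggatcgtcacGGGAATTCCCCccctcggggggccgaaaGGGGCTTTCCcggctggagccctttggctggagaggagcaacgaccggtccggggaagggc
Bcl10 (chr3:145924012-145924311, plus strand): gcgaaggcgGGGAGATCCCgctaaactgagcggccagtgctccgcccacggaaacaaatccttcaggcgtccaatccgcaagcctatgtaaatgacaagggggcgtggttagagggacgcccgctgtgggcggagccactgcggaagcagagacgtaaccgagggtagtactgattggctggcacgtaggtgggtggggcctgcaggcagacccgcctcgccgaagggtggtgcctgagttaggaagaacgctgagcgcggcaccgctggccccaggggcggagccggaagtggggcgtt
Counted from the annotated start, the Nfkbia stretch began at base -29 and that of Rel at base -92. Nfkb2 held 2 stretches in this window, which began at bases -39 and -11. Its windows 2 and 3, which overlap each other, shared the stretch GGGACTTTCC, and window 2 also held GGAATGTCCC. In Bcl10 the stretch lay at the far end of the window, from base -241. A match is a description of the letters and not a measurement of binding.

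**Figure D1:**
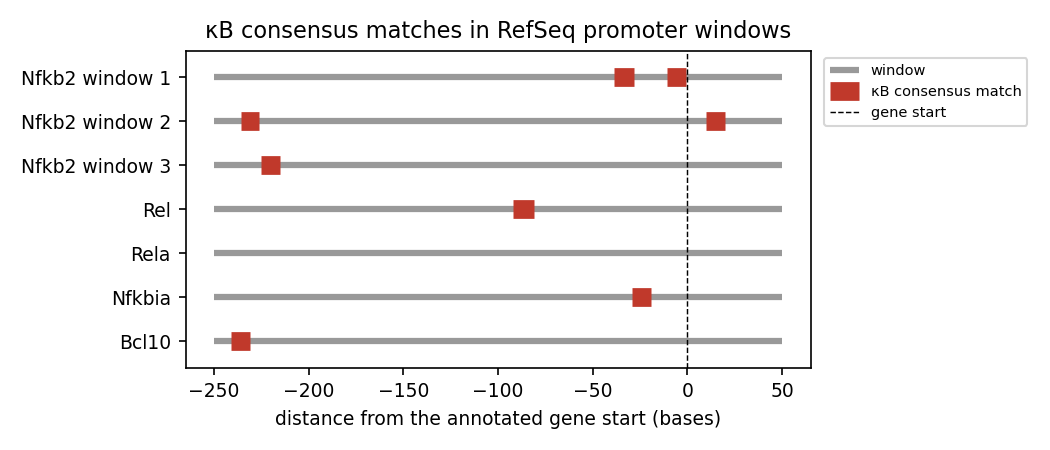
Position of κB consensus matches (red) in the RefSeq promoter windows (grey) of the members with a window, in bases from the annotated gene start (horizontal axis). The 4 genes with a match are Nfkb2, Rel, Nfkbia and Bcl10, and the Rela window holds none.

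The values are log2 intensities after RMA, a method that corrects background and normalizes between arrays. Genes of taste, vomeronasal and olfactory receptors, taken to be silent in these cells, gave 1242 probe sets, and the 95th percentile of their values served as the background line of each array, at 6.53 to 6.62. Above background means past this line on all arrays. All 8 members were above this line, against 63.5% of all single-symbol probe sets. For 7 of the 8 the smallest margin over the line was at least 2 on the log2 scale; that of Relb was 0.99. Early B-cell markers were above background in 15 of 16 cases, with Pax5, a factor of B-lineage commitment, at 10.80 ± 0.55 (SD, n = 4), and Rag2 passed the line on 3 of 4 arrays. Markers of other marrow cells were present as well, and the cells that gave a signal cannot be told apart. All 12 granulocyte and monocyte and all 11 erythroid markers with a probe set were above background. So were all 9 stem and progenitor, all 5 megakaryocyte and platelet and 7 of 8 T and NK markers with a probe set. The arrays differed in the erythroid and early B-cell markers. Relative to the mean of the other arrays, 0 of 11 erythroid markers and 14 of 15 early B-cell markers were higher on replicate 1, and 3 of 15 early B-cell markers were higher on replicate 4. Replicate 3 differed in sex-linked RNA, with Xist, the RNA of the inactive X chromosome, at 5.48 there and at 13.04 to 13.17 on the other arrays, and with the Y-linked Eif2s3y at 10.05 there and at 4.62 to 5.17 on the others. Replicate 3 thus held male RNA and the others female RNA, from different mice. Whether replicates 1, 2 and 4 came from separate mice is not stated, and the spread among these may be technical. Levels of different genes were not set against each other, since probe sets differ in their response.

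Among the subunits, Rel, which encodes c-Rel, the subunit most typical of lymphocytes, had log2 values of 11.69, 11.28, 11.33 and 11.21 on the arrays of replicates 1 to 4. Its mean was 11.38 ± 0.21 (SD, n = 4). The array of replicate 1 stood above the other arrays, which lay within a narrow band with an SD of 0.06 and a mean of 11.27. Replicate 1 exceeded replicate 4 by 0.48 on the log2 scale, 1.39-fold.

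Nfkb2, which encodes the p100 precursor of the p52 subunit of the alternative pathway, had log2 values of 9.35, 9.08, 9.19 and 8.78 on the arrays of replicates 1 to 4, with a mean of 9.10 ± 0.24 (SD, n = 4). Here the arrays differed at both ends, replicate 1 being high and replicate 4 low, by 1.48-fold between them. The SD was 0.21 without replicate 1 and 0.14 without replicate 4, so that the low array carried more of the spread than the high one.

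Rela, which encodes p65, the main transactivating subunit of the canonical pathway, had log2 values of 10.21, 10.12, 10.23 and 10.10 on the arrays of replicates 1 to 4. With a mean of 10.16 ± 0.07 (SD, n = 4) its lowest and highest arrays differed by 1.10-fold. It was the steadiest of the 8 members, and its SD lay at percentile 17.8 among the 13740 single-symbol probe sets above background. Rela was the only member whose highest value was not on the array of replicate 1; it was on that of replicate 3, 0.02 above replicate 1.

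Relb, which encodes the partner of p52 in the alternative pathway, had log2 values of 7.86, 7.81, 7.85 and 7.57 on the arrays of replicates 1 to 4, with a mean of 7.77 ± 0.13 (SD, n = 4). Replicates 1 to 3 could hardly be told apart, and replicate 4 was lower, 0.27 below the mean of the other arrays. Without replicate 4 the SD was 0.03. This was the member nearest to background, with margins of 0.99 to 1.33 over the line.

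Nfkbia, which encodes IκBα, the inhibitor that retains the canonical dimers and whose transcription they induce, varied most. Its log2 values were 10.48, 9.63, 10.03 and 9.53 on the arrays of replicates 1 to 4, with a mean of 9.92 ± 0.43 (SD, n = 4). Replicate 1 was the highest, replicate 3 lay in between, and replicates 2 and 4 were low and 0.11 apart. The highest and lowest arrays differed by 1.93-fold. The SD lay at percentile 98.2 among all single-symbol probe sets above background, and without replicate 1 it was 0.26.

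Ikbkb, which encodes IKKβ, the catalytic subunit that phosphorylates IκBα, had log2 values of 10.09, 9.88, 10.04 and 9.87 on the arrays of replicates 1 to 4. The mean was 9.97 ± 0.11 (SD, n = 4). The arrays fell into a higher pair, replicates 1 and 3, and a lower pair, replicates 2 and 4, with 1.16-fold between the extremes. The SD lay at percentile 47.9, close to the middle of all probe sets.

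Bcl10 and Malt1 encode the adaptor and the paracaspase of the complex that links antigen receptors to the IκB kinase. Bcl10 had log2 values of 11.06, 10.88, 10.74 and 10.71 on the arrays of replicates 1 to 4, with a mean of 10.85 ± 0.16 (SD, n = 4). Malt1 had 10.12, 9.96, 9.87 and 9.81, with a mean of 9.94 ± 0.13 (SD, n = 4). Both were highest on replicate 1, followed by replicates 2, 3 and 4. The extremes differed by 1.28-fold for Bcl10 and by 1.24-fold for Malt1. Without replicate 1 the SD was 0.09 for Bcl10 and 0.08 for Malt1.

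**Figure D2:**
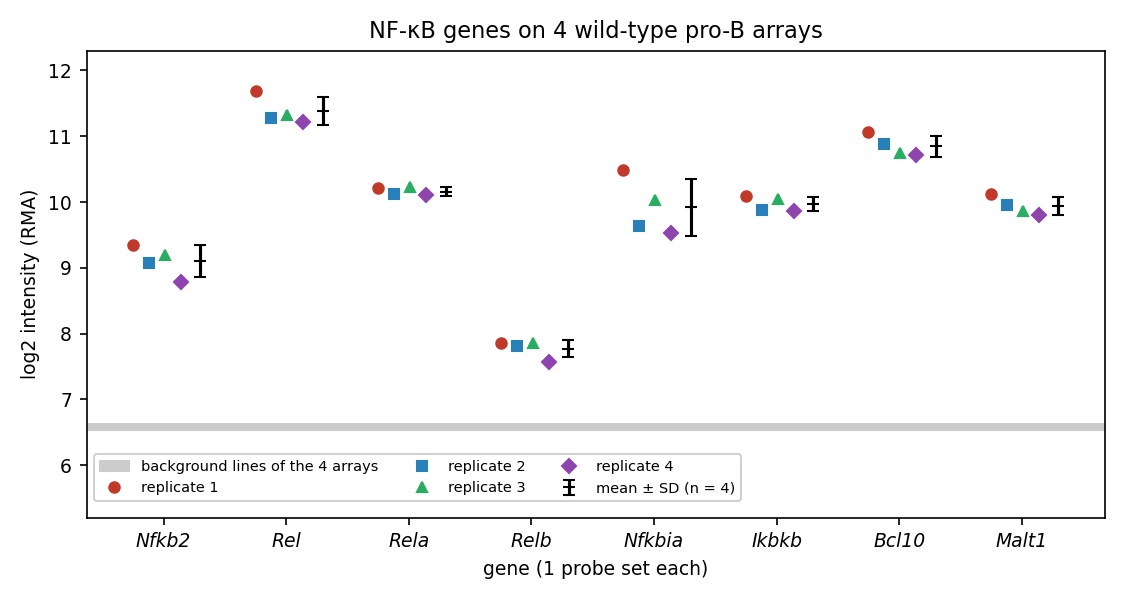
Log2 intensity after RMA (vertical axis) of the 8 NF-κB genes with a probe set (horizontal axis) on the arrays of replicates 1 to 4 of wild-type pro-B cells; black marks are the mean ± SD (n = 4) and the grey band spans the background lines, 6.53 to 6.62. All points lie above the band, and the points of Nfkbia are spread farthest, between 9.53 and 10.48; heights of different genes are not comparable.

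The members differed between arrays largely in the same direction. On the array of replicate 1, 7 of 8 had their highest value, against 33.2% of all single-symbol probe sets above background. On that of replicate 4, 8 of 8 had their lowest value, against 27.6% of all. Both held for 7 of 8 members, against 14.9% of all. These shares describe 4 arrays and were not tested, since the arrays carry no labelled difference and genes are not independent replicates. The median shift of the members from the mean of the other arrays was 0.26, -0.05, 0.09 and -0.20 on the arrays of replicates 1 to 4. Over all 13740 probe sets it was 0.01, 0.00, 0.01 and -0.01. The margins behind the counts were small for some genes: Relb was 0.01 higher on replicate 1 than on replicate 3, and Ikbkb was 0.01 lower on replicate 4 than on replicate 2.

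Without replicate 1, the members were highest on replicate 3 in 6 of 8 cases, against 36.7% of all probe sets, and lowest on replicate 4 in 8 of 8, against 36.0% of all. The remaining 2 members, Bcl10 and Malt1, were highest on replicate 2. The complete order of the arrays thus took 3 forms. Replicates 1, 3, 2 and 4 from high to low was the order of 5 members, Nfkb2, Rel, Relb, Nfkbia and Ikbkb, against 7.71% of all probe sets. Replicates 1, 2, 3 and 4 was that of Bcl10 and Malt1, against 7.20% of all. Rela had the order 3, 1, 2 and 4.

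The medians of the early, the pre-B and immature, and the mature B-cell markers ran in the same order as the larger set of members. So did those of the 7 plasmacytoid dendritic cell markers, over a narrower range (0.06, -0.06, -0.03 and -0.09). On replicate 1, 14 of 15 early, 5 of 7 pre-B and immature and 8 of 9 mature B-cell markers exceeded the other arrays' mean. The exceptions were Kit (-0.36), Cd24a (-0.17), Ighm (-0.71) and Fcer2a (-0.04). For 15 early B-cell markers above background the median shift was 0.76, -0.21, 0.11 and -0.58 from replicate 1 to replicate 4. The 7 markers of later stages, pre-B and immature, had 0.48, -0.01, 0.12 and -0.61, and those of mature B cells 0.24, -0.04, 0.13 and -0.28 over 9 genes. The summed linear intensity of the 16 early B-cell markers with a probe set was 43431 on the array of replicate 1, 27227 on replicate 2, 32083 on replicate 3 and 23318 on replicate 4. The megakaryocyte and platelet markers, with shifts of 0.33, 0.22, -0.02 and -0.49 over 5 genes, and the plasma cell markers, with shifts of 0.09, 0.03, 0.02 and -0.05 over 5 genes, ran in the order of Bcl10 and Malt1. The erythroid markers went another way, with shifts of -1.31, 0.71, 0.37 and 0.33 over 11 genes and a summed linear intensity of 15603 on replicate 1 against 29343 to 33666 on the other arrays. So did the granulocyte and monocyte markers, at 0.06, -0.49, 0.24 and 0.28 over 12 genes. The median shift of the 8 housekeeping genes was -0.03 to 0.03 over the arrays, and single genes shifted by up to 0.18, as Hprt did on replicate 2. The part of these cell types in the shifts of the NF-κB genes was not tested, and in such bulk samples fewer cells of a type cannot be told apart from less RNA per cell.

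**Figure D3:**
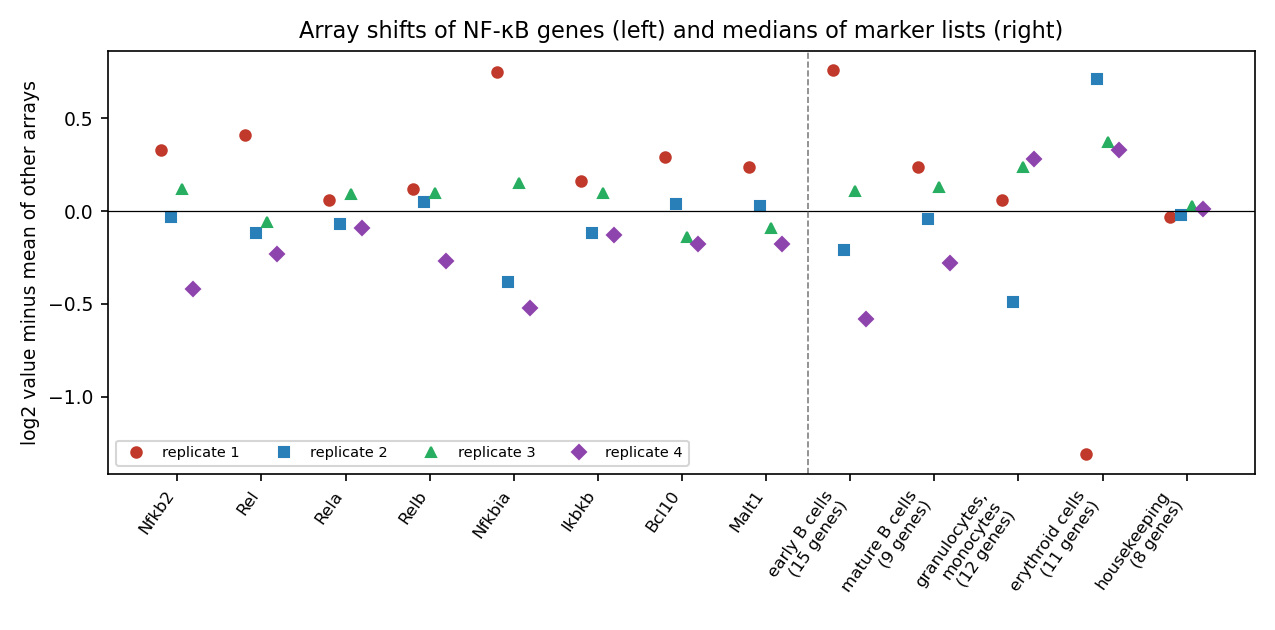
Log2 value on each array minus the mean of the other 3 arrays (vertical axis) for the 8 NF-κB genes, left of the dashed line, and the median of this shift over 5 marker lists, right of it; colours and symbols are the replicates. Replicate 4 is the lowest point of every NF-κB gene, and the Nfkbia points of replicates 1 and 4 lie at 0.75 and -0.52.

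The spread between arrays was uneven among the members. Their median SD was 0.15 on the log2 scale, against 0.11 for all 13740 probe sets, and 6 of 8 had an SD above that median. Of these, 3 members, Nfkbia, Nfkb2 and Rel, had an SD of at least 0.2, at percentiles 98.2, 90.2 and 86.5, while Rela and Ikbkb lay below the median. Malt1, Relb and Bcl10 lay at percentiles 61.3, 61.7 and 73.1. Without replicate 1 the median SD of the members was 0.09. That of all probe sets without replicate 1 was not computed, and the 0.11 above is over all 4 arrays. Of the 5 members with a promoter window, 4 had a κB consensus match, Nfkbia, Nfkb2, Rel and Bcl10, and Rela had none. Relb, Ikbkb and Malt1 had no window. The motif search was chosen after the values were seen, and a link between matches and spread was not tested. Among all genes above background with a window, 38.3% of 1239 with a match were highest on replicate 1, and 32.5% of 8876 without; the median SD was 0.114 with and 0.112 without a match.

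**Figure D4:**
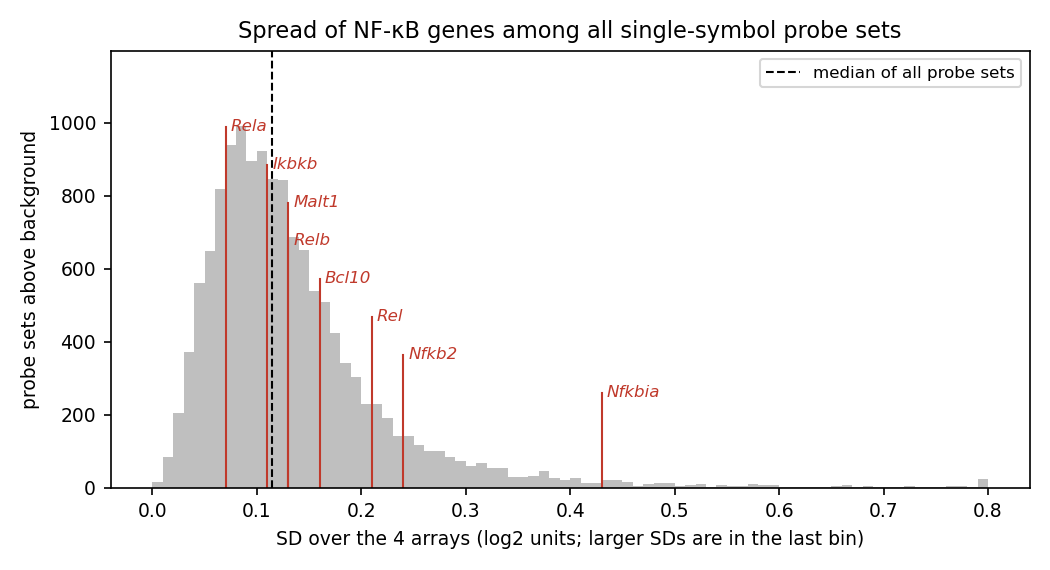
Number of single-symbol probe sets above background (vertical axis) by their SD over the 4 arrays in log2 units (horizontal axis), with the SDs of the 8 NF-κB genes as red lines and the median of all as a dashed line. Rela lies on the left flank at 0.07, most members lie near the bulk, and Nfkbia lies in the right tail at 0.43.

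Likeness of profile was measured as the root-mean-square difference over the 4 arrays between log2 profiles, each centred on its own mean. A small value means parallel changes or that both genes hardly vary, as with Rela and Ikbkb, whose SDs were 0.07 and 0.11. Between members, Bcl10 and Malt1 were the most alike, with a difference of 0.028. Of the 13739 other probe sets, 0.393% lay nearer to Bcl10 than Malt1 did, and 0.742% nearer to Malt1 than Bcl10 did. Rela and Ikbkb followed at 0.044. The nearest member to Nfkbia was Nfkb2, at 0.207. This distance grows with the SD of a gene, and 2.63% of the other probe sets lay nearer to Nfkbia than Nfkb2 did. The same share was 3.61% for Nfkb2, 4.80% for Rel, 6.07% for Rela, 10.2% for Relb and 3.07% for Ikbkb, each against its own nearest member. Since the nearest member was picked by these same distances, such shares are small in part by that choice. No share for randomly drawn probe sets was computed. Among all genes above background, those nearest to Nfkbia were Id3, an inhibitor of E proteins, at 0.027, Padi2 at 0.036 and Prdm9 at 0.042. Nearest to Rel were Lncpint at 0.007, Kbtbd11 at 0.010 and Strbp at 0.013. Nearest to Nfkb2 were Glis2 at 0.018, Trim16 at 0.026 and Fosb, an AP-1 subunit, at 0.026. These distances rest on 4 arrays and are a description.

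Of 68 other genes of the pathway, 62 had a probe set and 58 were above background, against 63.5% of all single-symbol probe sets. The probe set with the highest mean stood for each pathway gene, which can raise their count relative to that share. Of these 58, 31 were highest on replicate 1 and 16 were lowest on replicate 4, with 14 doing both, against the shares of 33.2%, 27.6% and 14.9% given above for all probe sets. The joint pattern was thus met by 7 of 8 members and by 14 of 58 other pathway genes; the difference was not tested. Their median shifts were 0.08, -0.07, 0.04 and -0.03 on the arrays of replicates 1 to 4, and their median SD was 0.13.

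Among the other IκB proteins, all 5 genes were highest on replicate 1 and 4 of 5 were lowest on replicate 4. Over all probe sets these shares were 33.2% and 27.6%. The median shifts of the 5 genes were 0.26 and -0.38 on these arrays. Nfkbie, which encodes IκBε, had log2 values of 9.09, 9.02, 8.98 and 8.48 on the arrays of replicates 1 to 4, so that replicate 4 was low and the others were close. Nfkbib, which encodes IκBβ, was the steadiest at 11.18, 11.18, 11.06 and 11.16. It was the exception, with its lowest value on replicate 3.

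The 3 partners of the BCL10-MALT1 complex with a probe set were all highest on replicate 1, against 33.2% of all probe sets. Their median shift there was 0.23. Prkcb, which encodes the protein kinase C that triggers the complex in B cells, had log2 values of 11.42, 10.99, 11.20 and 10.92 on the arrays of replicates 1 to 4, in the order of arrays of most members. Traf6, a ubiquitin ligase downstream of the complex, varied least in this list, with an SD of 0.10. Of the TRAF and cIAP adaptors, 4 of 6 were highest on replicate 1 and 2 of 6 lowest on replicate 4. Over all probe sets these shares were 33.2% and 27.6%. The median shift of the adaptors was 0.29 on replicate 1. Among the adaptors Traf5 had the largest SD, with 8.93, 8.74, 8.56 and 8.28 from replicate 1 to replicate 4, and Traf2 the smallest, 0.10.

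The genes of the IκB kinase partners and upstream kinases had median shifts of 0.04 on replicate 1 and 0.00 on replicate 4 over 6 genes. Tab3, which encodes an adaptor of the kinase TAK1, was lowest on replicate 1, with log2 values of 8.98, 9.39, 9.16 and 9.27 on the arrays of replicates 1 to 4. Tab2, its relative, had an SD of 0.09. The 12 ubiquitin editors had median shifts of 0.01 on both of these arrays. Tnfaip3, which encodes the feedback inhibitor A20, was the most variable of them, with 8.84, 8.49, 8.52 and 8.30 from replicate 1 to replicate 4, highest on replicate 1 and lowest on replicate 4. Sharpin, of the linear ubiquitin ligase, had an SD of 0.04.

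Receptors that feed the pathway were highest on replicate 1 in 7 of 10 cases and lowest on replicate 4 in 3. Over all probe sets these shares were 33.2% and 27.6%, so that the receptor count on replicate 4 was near the share of all. Tnfrsf13c, which encodes the receptor of the B-cell survival factor BAFF, was the most variable, with log2 values of 11.60, 11.08, 10.97 and 10.39 on the arrays of replicates 1 to 4, a span of more than that of any member. Ltbr, the lymphotoxin β receptor, had an SD of 0.06. Of the ligands, 0 of 5 above background were highest on replicate 1, against 33.2% of all probe sets. Il1b, a cytokine of myeloid cells, was lowest there, at 8.65 against 9.39 to 10.05 on the other arrays. Tnf had an SD of 0.08. Cd40lg and Lta were not above background, with means of 4.95 and 6.60. On replicate 1, where Il1b was low, 7 of 12 granulocyte and monocyte markers were higher than the mean of the other arrays and the rest lower. The median shifts of these markers were 0.06, -0.49, 0.24 and 0.28 on the arrays of replicates 1 to 4, an order of arrays other than that of Il1b. Single markers were not uniform. Ly6g, with log2 values of 9.59, 9.69, 10.25 and 10.47, rose from replicate 1 to replicate 4 in the order of Il1b. So did Csf3r, with 11.19, 11.32, 11.63 and 11.74, while the other markers of the list had different orders. The part of granulocytes and monocytes in the values of Il1b was not tested.

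Among 13 genes known as NF-κB targets, 11 were above background, against 63.5% of all single-symbol probe sets. Of these 11, 4 were highest on replicate 1 and 2 lowest on replicate 4, against 33.2% and 27.6% of all. Their median shifts were -0.04 and 0.04 on these arrays. Cd83, a surface protein of activated B cells, had the largest SD, with log2 values of 9.07, 8.63, 8.60 and 8.10 on the 4 arrays in turn. Ier3, an early response gene, had the smallest, 0.03. Cxcl2 and Il6, a chemokine and a cytokine of inflammation, were not above background on any array, with means of 5.82 and 4.15. Cd83 and the survival gene Bcl2l1 were the targets of this list that were highest on replicate 1 and lowest on replicate 4. Their shifts on replicate 1 were 0.63 and 0.62. Other targets went the opposite way on that array, as Vcam1 at -0.53 and Ccnd2 at -0.40, so that the median near 0 covers genes of both directions. Bcl2l1, Vcam1 and Ccnd2 were chosen after their values were seen. The list does not cover all targets. It leaves out the members and the other IκB genes, several of which are targets too. Nfkbia had shifts of 0.75 on replicate 1 and -0.52 on replicate 4. The median shifts of the 5 other IκB genes were 0.26 and -0.38 there, with 1 of 5 higher on replicate 4 than on the other arrays.

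**Figure D5:**
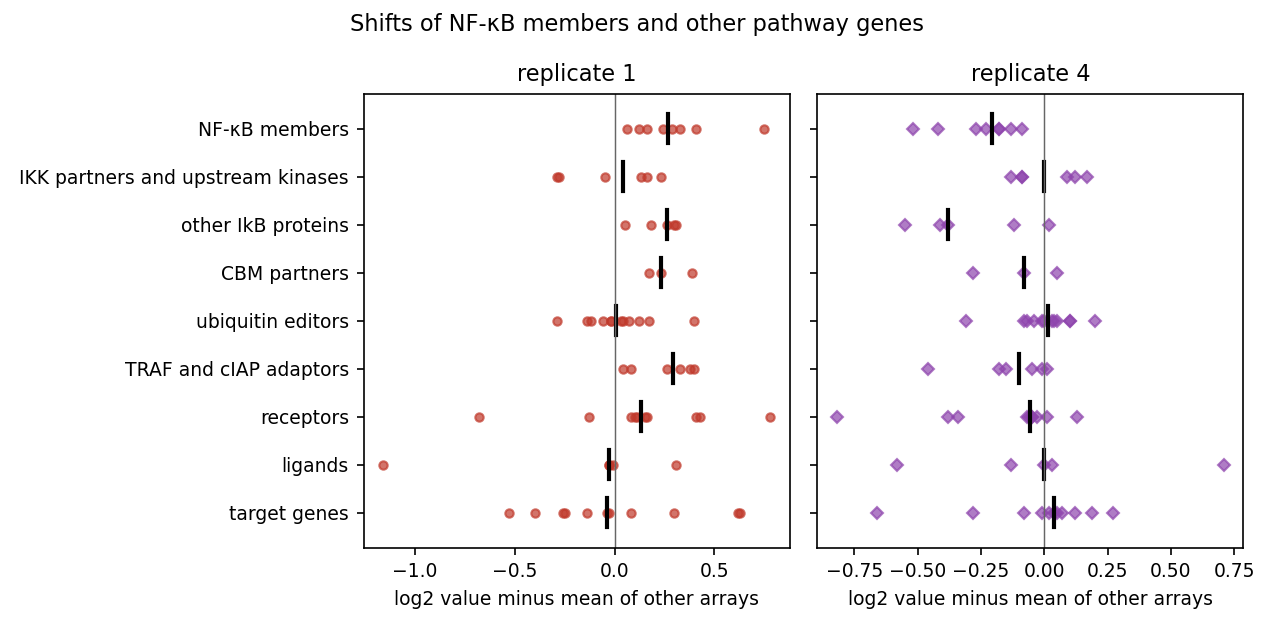
Difference in log2 value from the other arrays’ mean (horizontal axis) on the array of replicate 1 (left) and of replicate 4 (right) for the 8 NF-κB members and 8 lists of other pathway genes above background (rows); points are genes and bars are medians. The bar of the members lies at 0.26 on replicate 1 and -0.20 on replicate 4, and those of the IκB kinase partners and of the targets lie within 0.04 of 0 on both.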

How the data were processed

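Total RNA of the pro-B cells was labelled and hybridized to 1 array per replicate. The authors deposited RMA values, that is, log2 intensities after background correction and normalization. No source used here states which arrays entered the normalization together, the threshold of the low-expression filter or the genome build of the probe sets. Each of the 4 value columns was assigned by its name, and 0 had no sample. All 34760 probe sets were kept (array medians 7.31 to 7.35, Pearson's r between arrays 0.986 to 0.989 across probe sets); 21640 have 1 symbol in the platform's annotation, 1321 several and 11799 none listed. Only those with 1 were named, and 21553 matched the reference table by gene identifier, with 0 symbols changed. Of list genes with several probe sets, that with the highest mean was used. The number of arrays limits the precision.

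The members and gene lists were chosen with earlier results of these data known. By the background rule 45 of the 1242 silent receptor probe sets were themselves above the line. Named pathway genes were those with the largest and smallest SD of each list and those not above background; nearest genes were named for members with an SD of at least 0.2, 3 each. Marker lists were fixed with the pathway lists. The lists whose shifts are not given above were summarised in the same way. They were stem and progenitor (median shift on replicates 1 to 4: 0.08, 0.02, -0.03, 0.03), mast cell and basophil (0.13, -0.33, 0.38, -0.09), T and NK (-0.12, -0.04, 0.01, 0.02) and stromal markers (-0.11, 0.03, 0.03, -0.03). No p-values were computed, since the samples form 1 group. Alternatives were other background lines, 3 of 4 arrays, quantile normalization, cyclic loess, median centring, the median of the other arrays as reference, each array left out in turn and no background filter; none was added later. Counts of array orders, the check of sex-linked RNA and the motif search were chosen after the values were seen. Vcam1 stands both among the targets and among the stromal markers. Shifts and distances were tested on simulated data. Calculations used Python 3.11.15 with pandas 2.3.3 and numpy 2.4.6, figures matplotlib 3.10.9, and the alternative normalizations limma 3.58.1 in R 4.3.3.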

Additional observations from a re-analysis of the deposited data

Results flagged for a closer look

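Of 28 genes given by name for their role or their SD, members included, 1 had an array far from the other arrays by Dixon's ratio, where chance gives about 1 in 20, or 1.40 genes. Nfkbib was at a log2 value of 11.06 on the array of replicate 3, against a mean of 11.17 on the other arrays (ratio 0.851). None of the 8 members passed the critical value for 4 arrays; Relb came nearest, with a ratio of 0.822 for its low value on replicate 4, followed by Rel with 0.740 for its high value on replicate 1.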

How the results depend on the processing

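No paired analysis was possible because the 4 arrays form a single group. All 8 members were above background under every line tried and with each array left out, and 55 pathway genes were above the 99th percentile line in place of 58. The median SD of the members was 0.09 to 0.18 when each array was left out in turn, lowest without replicate 1. The median shift of the members on replicate 2 was -0.15 to 0.05 in these fits and turned positive without replicate 1; that on replicate 3 was -0.02 to 0.14 and turned negative without replicate 4. The cause was not tested. The shifts on replicates 1 and 4 kept their sign under the alternatives run (0.21 to 0.31 and -0.26 to -0.11). The number of members highest on replicate 1 was 6 with quantile normalization, cyclic loess and median centring, where Relb was highest on replicate 3, and 8 without replicate 3. The number lowest on replicate 4 was 7 with median centring, where Ikbkb was lowest on replicate 2. Without the background filter 5 of the 9 nearest genes were the same, since more probe sets were compared. Differences near 0.01 on the log2 scale, such as those behind the order of Relb and Ikbkb, are at the limit of 4 arrays, and the low margin of Relb over background limits its values.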
